A study of Homo sapiens with 9 samples.

Results

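Full-length TET1 was compared with an empty vector in HEK293T cells, a readily transfected line from human embryonic kidney with the SV40 T antigen. The comparison covers CCCGGG sites on the 22 autosomes of hg19 that had a methylation value in all 9 libraries of the series, which are 58310 of 382289 listed genomic sites and of 73831 autosomal sites with a value in at least 1 library. TET1-FL and the empty vector had 3 libraries each. The other 3 libraries come from cells given TET1-ALT, taken here as the isoform without a CXXC domain that the series' title names. All cells received a pIRES expression plasmid by Lipofectamine 2000, and DNA was taken 4 days later. The transfection was transient, the labels give neither the share of cells that took up plasmid nor the level of TET1 protein, and each value is an average over all cells of the culture. The labels do not say whether replicates were separate cultures, so a p-value measures only the spread between these libraries, which may be technical.

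TET1 is a dioxygenase that oxidises the methyl group of 5-methylcytosine to hydroxymethyl and further forms, which can then be lost through replication or base excision repair. Its full-length form holds a CXXC zinc finger that binds unmethylated CpG-rich DNA, and a catalytic domain at the carboxyl end. In human cells most CpGs outside CpG islands are methylated, while most islands at promoters are not. DREAM, the assay used, reads methylation at the single CpG inside CCCGGG. SmaI cuts unmethylated copies, XmaI then cuts the methylated ones, and the ends left by the enzymes differ. An oxidised cytosine has no value of its own in this table.

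Between 60055 and 64857 autosomal sites had a value in the empty vector libraries and between 64412 and 70629 in the TET1-FL libraries. Read depth is unknown beyond the minimum of 20 reads per site in the labels. Correlations across sites between libraries were 0.995 to 0.997 within and between the groups. At 18 sites on 8 non-genomic sequences, presumed to be the spiked-in standards, the mean was 44.0% ± 0.0570 (SD, n = 3) in empty vector libraries and 44.1% ± 0.0843 (SD, n = 3) in TET1-FL. Of these sites 10 were lower and 8 higher in TET1-FL, by -1.72 to 2.50 percentage points. The authors used standards to correct the values, so these are not an independent control. The labels give fewer standards than 8 and do not name them, so which of the 8 sequences served is unknown. At 2 of the 18 sites each TET1-FL value was under every empty vector value, and at 0 sites was the reverse seen. Those were a site at 99.1% ± 0.194 and 98.8% ± 0.0416 (SD, n = 3), a difference of -0.263 points, and one at 24.1% ± 0.211 and 23.1% ± 0.887 (SD, n = 3). Over the 58310 genomic sites, TET1-FL lay wholly below at 15.0% and wholly above at 2.09%. The 18 sites were not tested against these shares.

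Mean methylation was lower with full-length TET1 in each class of sites, with library ranges apart. The exact permutation test used for library means cannot give a p below 0.1 with 3 libraries a group. To keep the choice of class apart from the libraries compared, sites were classed by their mean in the 3 TET1-ALT libraries. Over all 58310 sites the empty vector libraries had mean methylation of 43.7%, 43.7% and 43.4% for replicates 1, 2 and 3, and the TET1-FL libraries had 42.6%, 42.9% and 42.8%. The group means were 43.6% ± 0.161 (SD, n = 3) and 42.8% ± 0.136 (SD, n = 3), and that of TET1-ALT was 43.3% ± 0.341 (SD, n = 3). The highest TET1-FL library lay below the lowest empty vector library. The difference was -0.828 points, with pairwise library differences from -1.09 to -0.522 (two-sided exact permutation p = 0.1, the smallest that 3 libraries against 3 can give).

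Intermediate sites had the largest difference of the 5 classes. At the 14111 sites of 20 to 80%, the empty vector libraries averaged 56.6%, 56.7% and 56.0% and the TET1-FL libraries 54.2%, 54.9% and 54.6%. The groups did not overlap, and the difference was -1.88 points (pairwise -2.55 to -1.13, exact permutation p = 0.1). At the 13061 sites of 80 to 95% the values were 89.2%, 89.2% and 88.7% against 87.6%, 88.1% and 87.8%, a difference of -1.19 points. The 5491 sites over 95% averaged 97.0% and 96.6%, a difference of -0.359 points. The 3148 sites of 5 to 20% averaged 12.01% ± 0.138 and 11.2% ± 0.0303 (SD, n = 3), a difference of -0.783 points. The 22499 sites under 5% averaged 0.567% ± 0.0347 and 0.492% ± 0.0184. Empty vector replicate 3 was the lowest empty vector library in the 4 classes above 5% and the highest in the class under 5%, and it was also the library with the fewest measured sites; the part of coverage in these values was not tested. Library ranges were apart in all 5 classes, each with an exact permutation p of 0.1. The classes come from the same libraries, so they are not independent of each other.

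**Figure D1:**
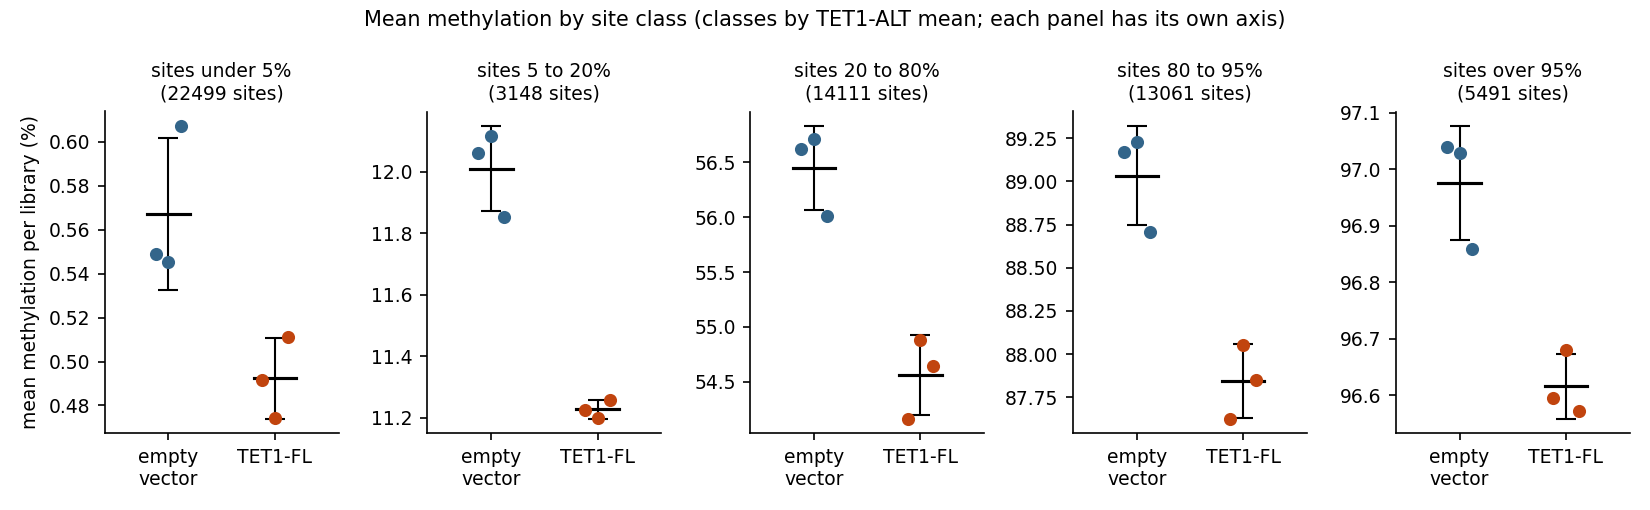
Mean methylation per library (y axis, percent, with its own range in each panel that does not start at 0) in 5 classes of sites, for 3 empty vector libraries (blue) and 3 TET1-FL libraries (orange), with group means and standard deviations as lines and bars. The TET1-FL points lie below all empty vector points in every panel, by -1.88 points at sites of 20 to 80%.

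In bins of 10 points the difference followed an arch over the methylation level. It was -0.101 points at 0 to 10%, -0.958 at 10 to 20% and -1.37 at 20 to 30%. It was most negative at 60 to 70%, where 2789 sites averaged 66.1% ± 0.489 and 63.9% ± 0.461 (SD, n = 3), a difference of -2.18 points with pairwise differences from -3.05 to -1.25. It was -1.45 points at 80 to 90% and -0.629 at 90 to 100%, and the latter was -0.279 with libraries scaled to equal means over sites above 95%. In all 10 bins the groups did not overlap (exact permutation p = 0.1 in each). The bins share the same libraries and their genome-wide levels, so they are not independent of each other. Differences between bins were not tested.

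As a share of the empty vector level, the difference was larger at lower levels. It was -5.38% of the empty vector mean at 20 to 30%, -3.70% at 50 to 60%, -1.69% at 80 to 90% and -0.663% at 90 to 100%. On the scale of log2 odds, which treats gain and loss near both ends alike, the difference varied less and was larger at both ends than in between. It was -0.16 at 0 to 10%, with -0.20 at the sites under 5%. It was -0.11 in each of the bins from 10 to 50%, -0.12 at 50 to 60%, -0.14 from 60 to 80% and -0.17 in the 2 bins above 80%.

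**Figure D2:**
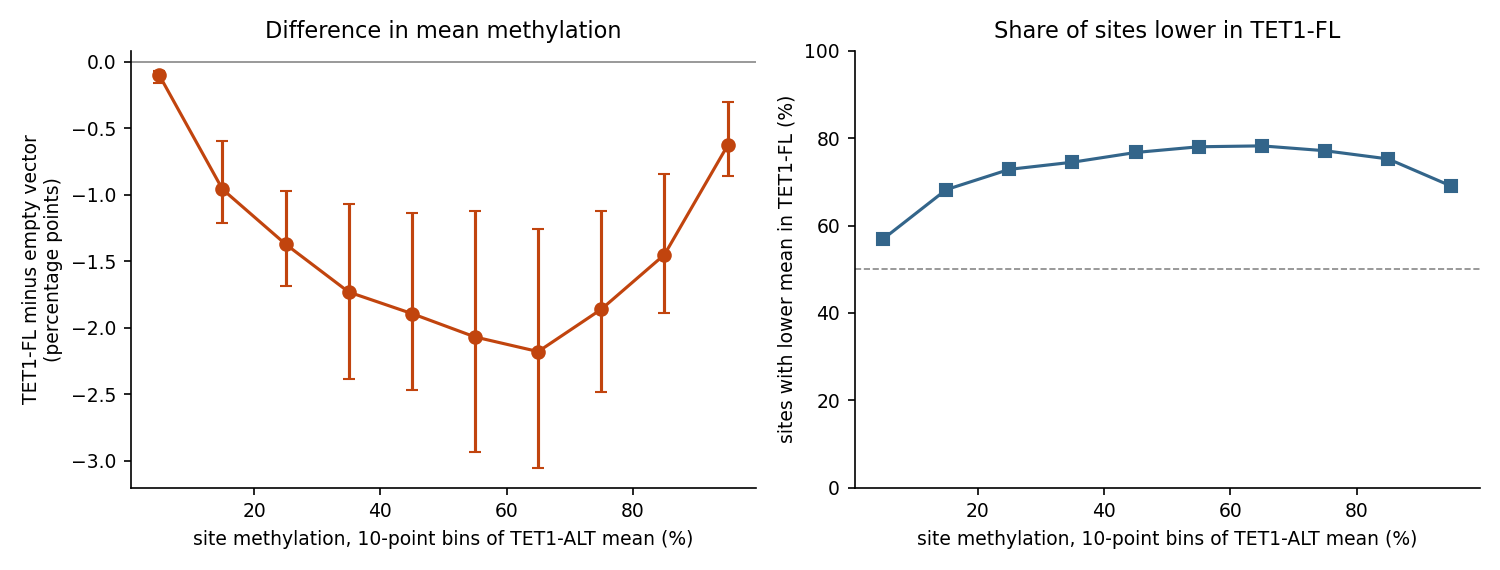
Difference of TET1-FL from the empty vector (left, percentage points, with bars for the range of the pairwise library differences) and share of sites with a lower mean in TET1-FL (right, percent, dashed line at equal shares), against site methylation in 10-point bins of the TET1-ALT mean. The difference is most negative at 60 to 70% (-2.18 points), where 78.2% of sites are lower in TET1-FL.

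The most methylated class held fewer sites in TET1-FL libraries and the intermediate class held more. Counted within each library, sites over 95% made up 10.4%, 10.6% and 10.2% of all sites in the empty vector group and 8.68%, 9.04% and 8.85% in TET1-FL, a difference of -1.51 percentage points (pairwise -1.89 to -1.13). Sites of 20 to 80% made up 23.8% ± 0.238 and 25.0% ± 0.279 of sites, and sites of 80 to 90% made up 11.99% ± 0.0711 and 12.4% ± 0.0676 (SD, n = 3). Sites under 5% made up 38.5% ± 0.0126 and 38.7% ± 0.0421 (SD, n = 3), a difference of 0.282 points. These 4 shares had library ranges apart (exact permutation p = 0.1). The share of sites of 5 to 20% was 5.48% and 5.54%, with overlapping libraries (exact permutation p = 0.6).

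Small differences at many sites made up the lower level. Of the 27172 sites of 20 to 95%, 20477 (75.4%) were lower in TET1-FL. The median difference of these sites was -1.51 points and the quartiles were -3.13 and -0.0267 points. The lowest 1% of sites lay below -9.92 points and the highest 1% above 6.96 points. Among sites under 5%, 12673 were lower and 9419 higher, with a median difference of -0.0133 points.

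Single sites did not pass the test. In limma, 0 of 58310 sites (0%) had a Benjamini-Hochberg adjusted p under 0.05, with 0.0788 as the smallest. Without adjustment, 5737 lower sites (9.84%) and 629 higher sites (1.08%) had a p under 0.05. The TET1-FL libraries lay wholly below the empty vector libraries at 8765 sites (15.0%) and wholly above at 1220 (2.09%). Of these, 186 lower and 66 higher sites had means at least 10 points apart, and 3 lower and 3 higher sites at least 20 points apart.

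Of the 5 lower sites of smallest p, 3 were over 80% methylated with the empty vector. On chromosome 8 at 9939093 the values were 92.7%, 94.5% and 93.4% in the empty vector libraries and 86.4%, 85.6% and 87.0% with TET1-FL. The limma difference was -7.20 points (SE 0.767, limma adjusted p = 0.286). On chromosome 16 at 87377928 methylation was 95.7% ± 0.810 in the empty vector libraries and 89.1% ± 0.491 in TET1-FL (SD, n = 3). The site on chromosome 9 at 139539577 had 23.8%, 23.9% and 27.4% against 13.3%, 11.6% and 13.5%, and the one on chromosome 19 at 11557332 had 83.6% ± 1.47 against 74.6% ± 0.915 (SD, n = 3). The lower site of smallest p, on chromosome 22 at 23863739, lay at 1.43% ± 0.112 and 0.317% ± 0.165 (SD, n = 3). At each of these 5 sites the groups did not overlap and TET1-ALT was also below the empty vector, at 89.6%, 93.7%, 20.95%, 80.3% and 0.300% in the order given. The sites were chosen by their p in this same comparison, so neither trait is separate evidence.

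The 5 higher sites of smallest p were all under 1% with the empty vector and differed by at most 1.19 points. On chromosome 17 at 65241148, a site with 6 other CCCGGG sites within 1000 bases, methylation was 0.140%, 0.150% and 0.130% in the empty vector libraries and 0.690%, 0.820% and 0.780% in TET1-FL (limma adjusted p = 0.0788). TET1-ALT stood at 0.173% there. On chromosome 8 at 47063935 the means were 0.327% and 1.52%, on chromosome 16 at 4166881 they were 0.237% and 0.880%, on chromosome 5 at 1112222 they were 0.0767% and 0.340%, and on chromosome 2 at 240609282 they were 0.277% and 1.33%. None of these 10 single sites passed the adjusted threshold, so they are given as values only.

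Averaging over megabases made the lower level visible in individual regions. In fixed 1 Mb windows with at least 10 sites of 20 to 95%, 690 windows holding 22495 sites were tested. In limma at an adjusted p under 0.05, 271 windows (39.3%) fell and 4 (0.58%) rose. The falls lay on all 22 autosomes and had a median of -2.04 points, from -4.25 to -1.48. At an unadjusted p under 0.05 there were 400 lower windows (58.0%) and 4 higher ones (0.58%). The TET1-FL mean was the lower one in 664 of 690 windows (96.2%). The median window difference was -1.59 points, with quartiles of -1.95 and -1.13 and a standard deviation between windows of 0.824 points, beside a median limma standard error of 0.687 points for 1 window. TET1-FL libraries lay wholly below the empty vector at 420 windows (60.9%) and wholly above at 5 (0.725%). All windows of a library share that library's genome-wide level, so these calls are not independent of each other.

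The number of called falls depended on single libraries. It was 5 without TET1-FL replicate 1 (0 rises), 12 without empty vector replicate 2 and 34 without empty vector replicate 1 (2 rises each), and 103 without TET1-FL replicate 3. When each library was centred on its own mean over sites of 20 to 95%, a window was tested against the genome-wide difference. In that setting 0 of 690 windows fell and 1 rose. At an unadjusted limma p under 0.05, 24 of the 690 were lower and 28 higher. That alternative was chosen after seeing the data. Called falls held a median of 25 sites and uncalled windows 19, and their median empty vector levels were 73.5% and 71.8%.

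**Figure D3:**
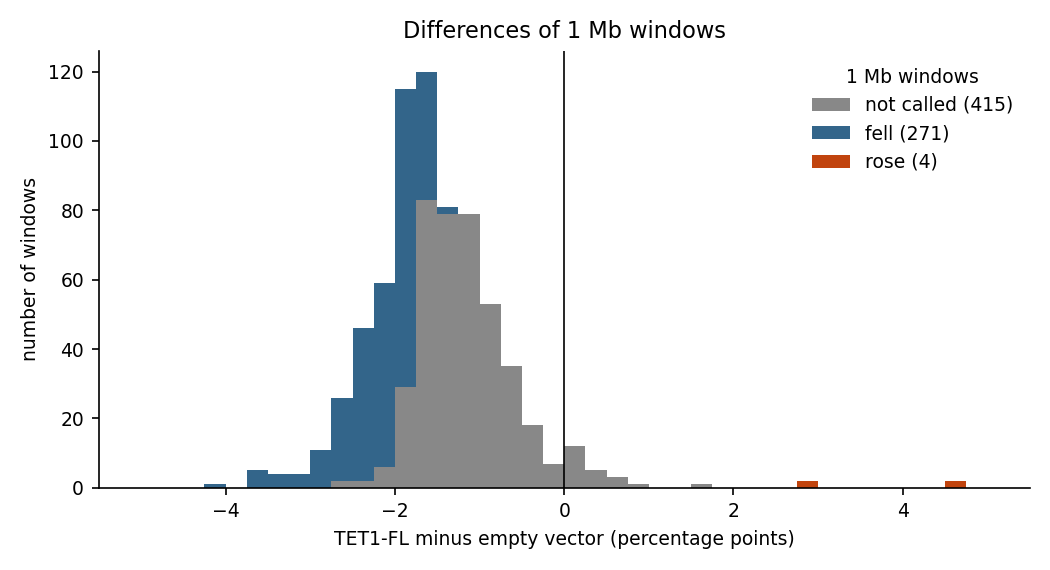
Number of 1 Mb windows (y axis) by the difference of TET1-FL from the empty vector (x axis, percentage points), stacked by limma call at an adjusted p under 0.05. Most of the 690 windows lie left of 0, the 271 that fell blend into the left side of one peak, and the 4 that rose stand apart on the right.

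Over all autosomes, 271 of 690 windows (39.3%) were called falls. By chromosome, these were most frequent on chromosomes 20 (21 of 32 windows) and 21 (7 of 12). Chromosomes 19 (24 of 43) and 22 (18 of 33) followed. Called falls were least frequent on chromosome 18 (2 of 14) and chromosome 14 (4 of 23). On chromosomes 6, 9, 12, 16, 17 and 19 the TET1-FL mean was lower in every window tested, as on chromosomes 4 and 14. Frequency of calls did not follow the size of the difference everywhere. At sites of 20 to 95% the mean difference was -1.46 points on chromosome 21, -1.81 on chromosome 20 and -1.55 over all autosomes. On chromosome 21 the TET1-FL mean was lower in 9 of 12 windows. Differences between chromosomes were not tested.

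Of the 10 falls of smallest p, 4 were on chromosome 11, and chromosomes 20 and 1 held 2 each. Among all called falls chromosome 11 did not stand out, with 13 of its 40 windows (32.5%) beside 39.3% of all windows. The share was 37.5% on chromosome 1 and 65.6% on chromosome 20. The first megabase of chromosome 20, from 1 to 1000000, held 17 sites and averaged 73.0%, 75.2% and 72.9% in the empty vector libraries and 70.5%, 70.7% and 69.6% in TET1-FL. All 3 TET1-FL values lay below, 16 of the 17 sites were lower, and the difference was -3.48 points (SE 0.673, limma adjusted p = 0.0107). Of all sites of 20 to 95%, 75.4% were lower. On chromosome 21 from 35000001 to 36000000, 11 sites averaged 75.3%, 75.2% and 77.2% against 73.1%, 72.9% and 70.7%, a difference of -3.66 points (limma adjusted p = 0.0107). Its difference was -4.08 to -2.92 points when each library was left out.

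On chromosome 11 the windows were 120000001 to 121000000, 76000001 to 77000000, 67000001 to 68000000 and 117000001 to 118000000. The first averaged 72.4%, 72.2% and 71.2% in the empty vector libraries and 68.5%, 68.9% and 68.1% in TET1-FL, with 19 of 20 sites lower and a difference of -3.41 points (limma adjusted p = 0.0107). The second, with 29 sites, went from 70.9% ± 0.516 to 67.3% ± 0.506 (SD, n = 3), and 26 sites were lower. The third, with 43 sites the most densely measured of the 10, went from 74.9% ± 0.225 to 72.2% ± 0.613, a difference of -2.75 points (SE 0.567, limma adjusted p = 0.0118). The last had the lowest level of the 10, at 61.2% ± 0.673 and 57.5% ± 0.867.

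The remaining 4 falls were each under 3 points. Chromosome 20 from 25000001 to 26000000 went from 80.01% ± 0.564 to 77.1% ± 0.0901 (SD, n = 3), with 25 of 27 sites lower. The difference was -2.84 points on chromosome 1 from 202000001 to 203000000, -2.86 points on chromosome 1 from 22000001 to 23000000 and -2.88 points on chromosome 22 from 29000001 to 30000000. In each of the 10 windows the TET1-FL and empty vector libraries did not overlap, and the TET1-ALT mean lay between those of both groups. The windows were chosen by their p in this same comparison, so neither trait is separate evidence, nor are their counts of lower sites. Over all 690 windows, TET1-FL libraries lay wholly below at 420 (60.9%). The TET1-ALT mean was above the empty vector in 134 of the 690. The fall on chromosome 22 and 5 of the other 9 lost their call without at least 1 library, with adjusted p of 0.0508 to 0.0798 in limma there. All 10 lost it when libraries were centred on sites of 20 to 95%.

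**Figure D4:**
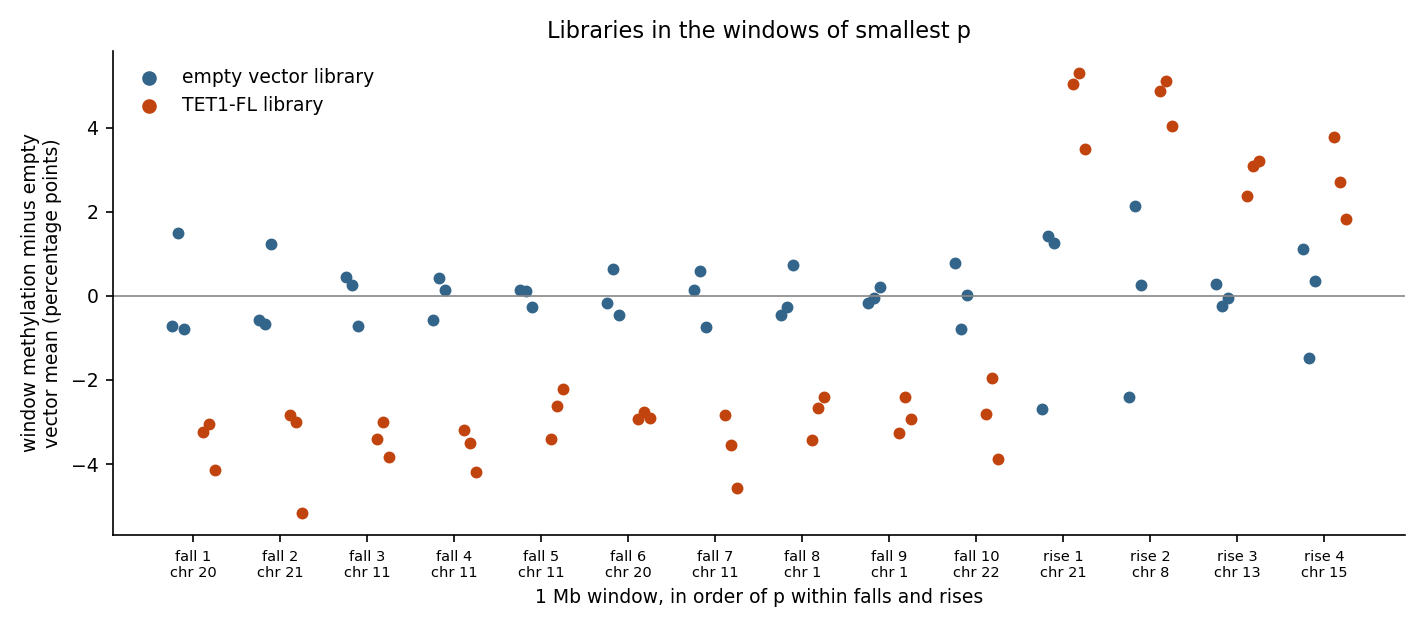
Methylation of 14 windows of 1 Mb in each library, as the difference from the window's empty vector mean (y axis, percentage points), for 3 empty vector (blue) and 3 TET1-FL (orange) libraries. The 10 falls of smallest p and the 4 rises each show separate groups, and in the rises on chromosomes 21 and 8 empty vector replicate 1 is the lowest point.

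The 4 windows that rose held sites that differed in both directions. On chromosome 8 from 48000001 to 49000000, 11 sites averaged 50.8%, 55.4% and 53.5% in the empty vector libraries and 58.1%, 58.3% and 57.3% in TET1-FL (difference 4.68 points, SE 1.08, limma adjusted p = 0.0197). A pair of neighbouring sites had the large differences. At 48650151 the values were 11.8%, 42.5% and 27.95% against 61.7%, 62.5% and 59.6%, and at 48650351 they were 6.87%, 38.2% and 23.5% against 55.5%, 58.8% and 57.8%. The empty vector libraries differed widely from each other at both sites while the TET1-FL libraries were close together. The 9 other sites of the window differed by -8.31 to 0.957 points.

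On chromosome 21 from 9000001 to 10000000, 14 sites averaged 43.2%, 47.3% and 47.1% against 50.9%, 51.2% and 49.3% (difference 4.62 points, SE 0.953, limma adjusted p = 0.0118). At 9826364 the values were 18.3%, 33.95% and 32.5% in the empty vector libraries and 45.7%, 48.4% and 44.0% in TET1-FL. At 9826484 they were 18.6%, 34.3% and 32.7% against 46.5%, 49.0% and 44.3%, so each library had nearly the same value at both sites. Neighbouring sites can be the 2 ends of 1 restriction fragment and are then read from the same molecules. Nearby sites differed in both directions. At 9825895, 9826093 and 9826541 the means were higher in TET1-FL by 7.71, 11.98 and 12.9 points, whereas at 9826147 and 9826307 the differences were -1.01 and -0.940 points.

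On chromosome 13 from 109000001 to 110000000, 10 sites averaged 67.7%, 67.2% and 67.4% against 69.8%, 70.5% and 70.6% (difference 2.90 points, limma adjusted p = 0.0250), with 5 sites higher and 5 lower. The largest positive differences there were at 109147944, with 51.1% ± 6.91 and 64.3% ± 2.68, and at 109792908, with 66.7% ± 4.39 and 78.4% ± 8.92 (SD, n = 3). This window was the 1 call left after centring libraries on sites of 20 to 95% (4.45 points, limma adjusted p = 0.0382, and 0.0120 to 0.0818 over all 15 alternatives). On chromosome 15 from 83000001 to 84000000, 12 sites went from 72.6% ± 1.34 to 75.4% ± 0.975 (difference 2.78 points, limma adjusted p = 0.0483), and the site at 83954306 had 74.5% ± 1.29 and 84.6% ± 4.15 (SD, n = 3). Without TET1-FL replicate 1 all 4 rises lost their call, with limma adjusted p of 0.0614 on chromosome 21, 0.0818 on chromosomes 8 and 13 and 0.163 on chromosome 15. The calls on chromosomes 21 and 8 held in 14 of 16 alternatives, that on chromosome 13 in 11 of 15 and that on chromosome 15 in 5 of 16. In all 4 windows the TET1-ALT mean was above the empty vector as well, at 55.8%, 48.9%, 69.7% and 74.1% in the order described. Over all 690 windows it was above in 134. The 4 windows were chosen with these same empty vector libraries, so this is not separate evidence. TET1-ALT libraries overlapped those of the empty vector on chromosomes 8, 13 and 15 and lay above them on chromosome 21.

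At the scale of short clusters, runs of at least 3 sites of 20 to 95% with gaps up to 1000 bases, fewer regions could be told apart. Of 2050 clusters holding 7585 sites, 1748 (85.3%) were lower in TET1-FL, and the median difference was -1.50 points. In limma 0 clusters (0%) were called, with 440 lower (21.5%) and 15 higher (0.732%) at an unadjusted p under 0.05. The lower clusters of smallest p were on chromosome 4 from 528728 to 530105 (92.2%, 93.0% and 94.1% against 88.6%, 89.0% and 89.8%), on chromosome 11 from 2416486 to 2416789 (85.1%, 87.1% and 86.5% against 80.4%, 80.6% and 79.8%) and on chromosome 14 from 104354522 to 104355602 (81.5%, 82.0% and 81.2% against 77.7%, 76.3% and 76.7%). All 3 had a limma adjusted p of 0.1004. Of the 3 higher clusters of smallest p, 1 was on chromosome 8 from 687366 to 688146, where 4 sites averaged 51.9% ± 1.96 and 56.8% ± 1.20 (SD, n = 3; limma adjusted p = 0.126), and the others are given with the longer clusters.

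With clusters of at least 5 sites, 340 were tested, of which 7 fell (2.06%) and 2 rose (0.588%) in limma at an adjusted p under 0.05. The falls included 5 sites on chromosome 2 from 220348025 to 220348601, at 79.5%, 79.5% and 79.2% in the empty vector libraries and 73.2%, 75.4% and 74.4% in TET1-FL, each of the 5 sites being lower. Another on chromosome 2, from 242964322 to 242965674, went from 56.2% ± 1.12 to 50.7% ± 0.833 (SD, n = 3), and again all 5 sites were lower. Others lay on chromosome 16 from 1170436 to 1171844 (82.9% to 77.9%), chromosome 7 from 1280886 to 1282688 (84.3% to 79.7%), chromosome 22 from 50617057 to 50618569 (79.2% to 75.5%) and chromosome 1 from 2433788 to 2434216 (57.7% to 52.7%) and from 25255227 to 25257180 (68.3% to 63.9%). Both rises were the site groups on chromosomes 8 and 21 described above, from 48649072 to 48651575 and from 9825895 to 9827508, at 8.93 and 6.86 points. As clusters among the 2050 both rises had a limma adjusted p of 0.1004, with 0.0118 to 0.313 and 0.0149 to 0.313 over the alternatives. The 7 falls had a limma adjusted p of 0.1004 to 0.140 among the 2050, so none was called there. Clusters of at least 5 sites were not tested with a library left out or with libraries scaled or centred. With libraries centred, none of the 2050 was called. The falls were chosen by their p, so their counts of lower sites are not separate evidence.

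Sites near and far from measured unmethylated sites did not differ beyond the spread between libraries in how far TET1-FL lay below the empty vector. Sites of 20 to 95% within 1000 bases of an unmethylated site (under 5%) were compared with sites over 10000 bases away. Both sets were weighted to the same methylation levels. Only sites with a value in all 9 libraries could count as unmethylated. Unmethylated DNA without such a site was not seen, so some distant sites may lie close to it. The 2090 near sites differed between TET1-FL and the empty vector by -1.53 points and the 19953 distant sites by -1.55 points. The gap between these differences was 0.0249 points, with pairwise library values from -0.395 to 0.339 (exact permutation p = 0.8). Its sign turned in some alternatives, between -0.0555 and 0.166 points. Unmatched, the difference was -1.66 points at 1187 sites within 500 bases of an unmethylated site and -1.49 points at 9929 sites more than 50000 bases away, while the empty vector level was 52.9% and 72.0%.

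For crowding by other CCCGGG sites the result rested on single libraries. The 1078 sites with at least 6 other listed sites within 1000 bases differed by -1.25 points and the 206 sites with none by -0.968 points, weighted to the same levels. The gap between these differences was -0.279 points (pairwise -0.717 to 0.257, exact permutation p = 0.4), with overlapping libraries. Without empty vector replicate 1 it was -0.501 points with library ranges apart (exact permutation p = 0.1), and without empty vector replicate 3 it was -0.132 points (exact permutation p = 0.8). Unmatched, the difference showed no steady course with the number of other sites. It was -1.01 points with 0, -1.61 with 1 (11897 sites), -1.59 with 2 and -1.47 with 3 to 5. With 6 to 9 it was -1.14 points, and with 10 or more -1.86 (152 sites).

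Sites in megabases rich in CCCGGG had a larger difference in these libraries than sites in poor ones, but the contrast did not pass adjustment. The 6892 sites in the richest megabases (the upper 25% of sites) differed between TET1-FL and the empty vector by -1.66 points, and the 6830 sites in the poorest megabases (the lower 25%) by -1.38 points, at matched levels. Rich minus poor was 0.243, 0.419 and 0.393 points in the empty vector libraries and 0.137, 0.0973 and -0.00512 points in the TET1-FL libraries. The gap between these differences was -0.276 points (pairwise -0.425 to -0.106), and the library values of rich minus poor did not overlap. The exact permutation p was 0.1, which could not go lower, and the adjusted p was 0.3 over the 3 such contrasts. Without TET1-FL replicate 3 the gap was -0.235 points (exact permutation p = 0.2). In the 10% of sites with the fewest listed sites per megabase the unmatched difference was -1.26 points, and in the 10% with the most it was -1.67 points.

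**Figure D5:**
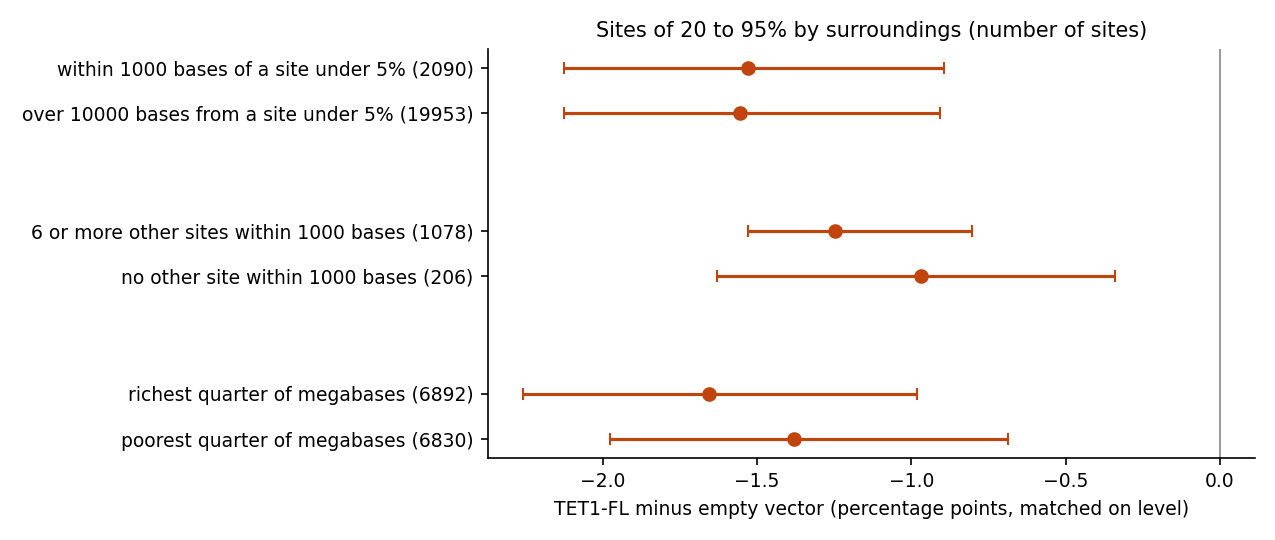
Difference of TET1-FL from the empty vector (x axis, percentage points, weighted to the same methylation levels within each pair) for sites of 20 to 95% in pairs of contrasting surroundings, with bars for the range of pairwise library differences and the number of sites in brackets. All 6 sets lie between -1.66 and -0.968 points with overlapping ranges.

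Differences of neighbouring sites were weakly correlated at distances of at most 250 bases. For adjacent sites of 20 to 95% at most 250 bases apart, the correlation across 4802 pairs of the TET1-FL difference from the empty vector was 0.170, against 0.0502 to 0.0990 for the differences between 2 libraries of the same group. At 250 to 500 bases it was 0.0718 (4669 pairs) against 0.0301 to 0.111, and at 500 to 1000 bases 0.0483 (1887 pairs) against 0.0190 to 0.0739. At 1000 to 5000 bases it was 0.0217 (2619 pairs) against -0.0189 to 0.0106. The TET1-FL difference is between means of 3 libraries and the others between single libraries, so their noise is unlike. Methylation level was not matched here. These are descriptions across sites, which are not independent, and close sites can share fragments and reads.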

How the data were processed

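DREAM methylation in percent was analysed for 9 libraries, 3 each of empty vector, TET1-ALT and TET1-FL. The authors computed the deposited percent values, per the labels' series design, from methylated and total reads per CCCGGG site and corrected them with spiked-in standards. Sites are on hg19, per the submitters' processing notes. Aligner and caller: not given in the sources used here. Read counts were not used here. Per the labels, libraries had 18 PCR cycles and a site needed 20 reads, so depth-based intervals are not given.

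Autosomal sites with 9 values were used. Site, cluster and 1 Mb window means were fitted with limma 3.58.1 in R 4.3.3 over all 9 libraries with a mean per group, intensity trend and robust moderation, and called at a Benjamini-Hochberg adjusted p under 0.05. The count model foreseen for read counts could not be applied to percentages. Library means were compared by two-sided exact permutation over 20 assignments. Classes, clusters and windows used TET1-ALT means. Clusters needed 3 sites and gaps up to 1000 bases, windows 10 sites. Scripts were tested on simulated data.

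Named regions were the called ones of smallest p, up to 10 in each direction, or the 3 of smallest p where fewer than 3 were called, and the 5 single sites of smallest p in each direction. The text also names sites inside risen windows and the called clusters of at least 5 sites, chosen after their values were seen. Members, classes and rules were chosen with earlier results of these data known. Replicate numbers are shared across groups but were not used to pair libraries in the main tests. No hg19 annotation or genome was at hand, so genes, promoters and sequences are not given.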

Additional observations from a re-analysis of the deposited data

How the results depend on the processing

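The lower mean in TET1-FL kept its sign over all sites (-0.920 to -0.668 points) and in every class and 10-point bin in each alternative, with 1 exception that follows from construction: with libraries scaled to equal means over sites above 95%, that class differs by 0. The same scaling took the bin of 90 to 100% from -0.629 to -0.279 points. When each library was left out in turn the all-site difference was -0.920 to -0.754 points, at 20 to 80% it was -2.10 to -1.69 and at 80 to 95% -1.36 to -1.08. The contrast by distance to unmethylated sites turned to -0.0104 points with near taken as 2000 bases and to -0.0555 without matching, and was -0.0544 to 0.166 when each library was left out, so its sign is not determined. It was -0.0529 without empty vector replicate 2, -0.0384 without empty vector replicate 3 and -0.0544 without TET1-FL replicate 1. Local density ranged from -0.501 to -0.132 and megabase density from -0.330 to -0.235 points over all alternatives.

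Single sites called were 0 in limma in all 16 alternatives. Clusters called were 0 in 17 of 18, and 7 lower and 2 higher with at least 5 sites, where fewer clusters are tested. Windows that fell numbered 271, and 129 with libraries scaled to equal means over sites above 95%, 0 with libraries centred on sites of 20 to 95%, and 5 to 346 when each library was left out. Windows that rose numbered 4, and 2 when classed by all 9 libraries, 2 with 500 kb windows, 1 when centred, and 0 to 4 when each library was left out. The cause was not tested where none is given. With a replicate block in limma, 289 windows fell and 4 rose, and the smallest adjusted p was 0.0007 in place of 0.0107. Deviations of same-numbered empty vector and TET1-FL libraries correlated at -0.0057 to 0.0011 across sites, so no pairing by number showed at single sites. Such a correlation leaves out shifts of a whole library, so it cannot settle whether the numbers pair them. Read depth per site is unknown, and 3 libraries a group allow no exact p below 0.1.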
